A study of Rattus norvegicus with 18 samples.

Results

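The nuclear genes for the 5 complexes of oxidative phosphorylation were compared across 18 rat hippocampus arrays. Members were the genes with a single symbol in the array annotation that begins with Nduf (complex I), Sdh (complex II), Uqc (complex III), Cox4 to Cox8 (complex IV) or Atp5 (complex V). Of 10412 genes so annotated, 93 were members: 41 of complex I, 8 of complex II, 12 of complex III, 16 of complex IV and 16 of complex V. A gene with several probe sets was represented by the one with the highest mean signal, which was needed for 6 genes. The prefixes also take in assembly factors, which build the complexes without being part of them, and 1 inhibitor of ATP synthase, and they place in complex I the gene Ndufa4, whose product is now assigned to complex IV. The subunits encoded by mitochondrial DNA have 0 probe sets with such a symbol, so every result concerns nuclear transcripts.

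Total RNA was hybridised to 1 Affymetrix array per sample. The diets were alcohol, isocaloric (by its name, of equal calories) and control, in a study of learning after exposure to alcohol before birth. Within each diet, samples were either trained, in a procedure the labels abbreviate CFC, or naive. The naive groups held 4 (alcohol), 2 (isocaloric) and 2 (control) arrays, and the trained groups 4, 4 and 2. No strain, age, sex, dose or litter was given for any group. The labels do not say that replicates were separate animals, so the spread behind each p-value may be technical.

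Complex I takes electrons from NADH and complex II takes them from succinate. Both pass them through ubiquinone to complex III, which hands them by cytochrome c to complex IV, where oxygen is reduced. Complexes I, III and IV pump protons across the inner mitochondrial membrane, and complex V, the ATP synthase, uses the return flow to make ATP. Neurons depend heavily on this route, since restoring ion gradients after firing uses much of their ATP. In complexes I and IV a few catalytic subunits are surrounded by many accessory subunits, which are all nuclear encoded.

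Many nuclear respiratory genes carry binding sites for the factors NRF-1, GABP (an ETS factor), Sp1 and YY1 near their start sites. Promoter windows of 300 bases, from 250 bases before to 50 after the start, were available from RefSeq (GRCr8) for 85 of the 93 members. Shown here are the windows of Ndufb1 and Uqcc2, a subunit of complex I and an assembly factor of complex III with the largest falls of their complexes in isocaloric against control samples, and of Ndufa12 and Atp5po, members of complexes I and V that were lower in both other diets than in control. Capitals mark every match, on either strand, to GCGCA, any base and GCGC (NRF-1), CCGGAAG (ETS/GABP), GGGCGG (Sp1) or AAGATGG (YY1), and matches of different motifs were counted separately where they overlap.
Ndufb1: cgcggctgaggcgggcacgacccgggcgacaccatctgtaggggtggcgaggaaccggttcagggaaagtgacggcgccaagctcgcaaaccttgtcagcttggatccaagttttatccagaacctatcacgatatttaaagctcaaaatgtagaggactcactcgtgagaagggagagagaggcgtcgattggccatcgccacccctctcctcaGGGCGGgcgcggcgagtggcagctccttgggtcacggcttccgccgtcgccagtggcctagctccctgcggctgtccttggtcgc
Uqcc2: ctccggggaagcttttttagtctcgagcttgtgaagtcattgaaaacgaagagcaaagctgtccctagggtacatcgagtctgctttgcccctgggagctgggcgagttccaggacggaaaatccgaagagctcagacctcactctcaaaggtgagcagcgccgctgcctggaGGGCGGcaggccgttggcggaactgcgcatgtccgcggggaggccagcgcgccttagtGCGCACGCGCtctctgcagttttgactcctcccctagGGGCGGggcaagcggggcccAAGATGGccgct
Ndufa12: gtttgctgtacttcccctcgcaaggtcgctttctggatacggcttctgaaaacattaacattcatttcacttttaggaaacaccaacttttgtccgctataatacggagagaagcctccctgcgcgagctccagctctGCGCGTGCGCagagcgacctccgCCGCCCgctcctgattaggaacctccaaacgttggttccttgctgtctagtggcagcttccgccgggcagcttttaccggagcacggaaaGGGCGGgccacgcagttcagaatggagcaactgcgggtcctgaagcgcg
Atp5po: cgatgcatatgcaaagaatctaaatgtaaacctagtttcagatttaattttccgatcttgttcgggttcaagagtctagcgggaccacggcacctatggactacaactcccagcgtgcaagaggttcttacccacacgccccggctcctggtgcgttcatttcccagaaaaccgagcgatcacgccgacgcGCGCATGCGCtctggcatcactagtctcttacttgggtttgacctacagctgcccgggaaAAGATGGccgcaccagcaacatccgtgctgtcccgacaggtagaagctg
The windows lie at chr6:126888815-126889114 (minus strand) for Ndufb1, chr20:5216334-5216633 (minus strand) for Uqcc2, chr7:30658066-30658365 (plus strand) for Ndufa12 and chr11:44657434-44657733 (minus strand) for Atp5po. Ndufb1 held 1 Sp1 match. Uqcc2 held matches to 3 of the motifs, and its YY1 match began 39 bases after the start. Atp5po held an NRF-1 match that began 59 bases before the start and a YY1 match at base 2 after it. In Ndufa12 the NRF-1 match began 112 bases before the start.

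Over all members with a window, the NRF-1 letters were found in 19 of 85 (22.4%), against 11.6% of the promoters of the 5738 other genes tested and 4.25% of all 33469 windows of this length. The YY1 letters stood in 24.7% of the members' windows, 9.48% of those of other tested genes and 7.01% of all windows. For ETS/GABP the shares were 30.6%, 19.1% and 8.75%. Sp1 ran the other way among tested genes, with 47.1% of members against 67.9% of other tested genes, and 33.1% of all windows. By complex, the NRF-1 letters were present in 8 of 39 windows of complex I, 3 of 8 of complex II, 3 of 11 of complex III, 0 of 12 of complex IV and 5 of 15 of complex V. Of the members that fell in isocaloric against control samples, 21 had a window, and 5 of these held the NRF-1 letters, against 14 of the 64 others. These are matches of letters, and they do not show that a factor binds.

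All levels below are log2(signal + 6.06) of the deposited values, and a difference of 1 is a doubling of that quantity. Levels are not compared between probe sets. The arrays share a common scaling, total signal was 2.92e+06 to 3.13e+06, and pairs within a group had correlations of 0.965 to 0.982. For control naive replicate 1 and control trained replicate 2 the values were written with at most 6 digits and the summary algorithm MAS5 is named in the submitters' processing notes; other arrays hold longer values. Control naive replicate 2 stood apart in the members themselves. Averaged over the members and set against the mean of all arrays, its level was 0.37 higher, while the next highest array, control trained replicate 2, was at 0.09. The members' comparisons with control, and the other counts that rest on it, are therefore given with and without that array. Of the hippocampal neuron markers on the array, 11 of 11 passed the filter on low values, as did 3 of 5 markers of striatum, 2 of 3 of thalamus and 5 of 7 of choroid plexus, so passing the filter does not tell the region apart. In whole tissue, fewer cells of a type and less RNA per cell cannot be told apart.

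Of the 93 members, 86 passed the filter on low values: 40 of complex I, 8 of complex II, 12 of complex III, 10 of complex IV and 16 of complex V. Averaged per array, the members of a complex spanned a narrow range. The 2 isocaloric naive arrays were the lowest of all 18 for complex I, at -0.15 and -0.18, for complex IV, at -0.18 and -0.22, and for complex V, at -0.16 and -0.22. At the other end, control naive replicate 2 was the highest array for every complex, at 0.41 for complex I, 0.18 for complex II, 0.39 for complex III, 0.28 for complex IV and 0.41 for complex V. The other control naive array read 0.02, 0.01, -0.03, 0.05 and 0.07 in that order, so the group of 2 has a wide spread. For complex I the alcohol arrays lay between -0.05 and 0.07 and the isocaloric trained arrays between -0.11 and 0.00, so these diets overlapped in trained samples. Complex II had the narrowest range of group means of the 5 complexes, from -0.06 to 0.10.

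**Figure D1:**
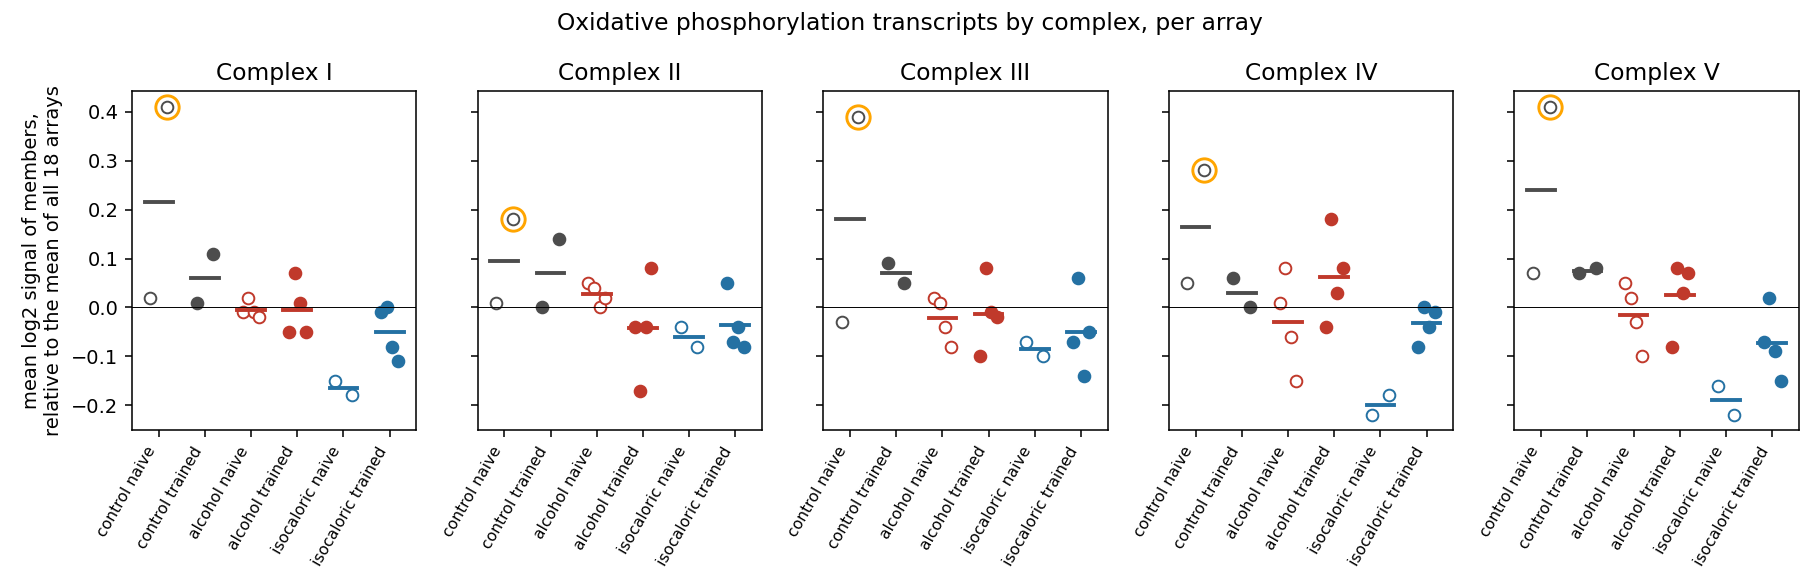
Mean log2 signal of the members of each complex on each array, relative to the mean of all 18 arrays (y axis), by diet and training group (x axis); open circles are naive and filled circles trained samples, bars are group means, and the orange ring marks control naive replicate 2. That array is the highest in all 5 panels (0.41 for complex I), and the 2 isocaloric naive arrays are the lowest for complexes I, IV and V.

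After removing group means, members of the same complex varied together across arrays, with a median correlation of 0.41 over 1039 pairs, against 0.29 for 2616 pairs from different complexes and 0.00 for all pairs of probe sets tested. Pairs within complex I had a median of 0.43 and pairs within complex II of 0.14. The points share 18 arrays and their scaling. Since members vary together, counts of members by direction are not counts of independent results. With the control naive group left out, the medians over 16 arrays were 0.18 within and 0.11 between complexes.

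Respiratory transcripts were lower on isocaloric than on control arrays, and over all 18 arrays the lowest medians were in complexes I and V. At an adjusted p of 0.05 (limma, Benjamini-Hochberg over 9520 probe sets) 24 of 86 members fell and 0 rose, where 2.8% of all probe sets tested fell and 4.24% rose. The median difference was -0.21, against 0.02 over all probe sets tested, and 82 of 86 members were below 0, against 44.4% of all. Falls numbered 14 of 40 in complex I, 1 of 8 in complex II, 3 of 12 in complex III, 1 of 10 in complex IV and 5 of 16 in complex V. The medians were -0.23, -0.15, -0.16, -0.20 and -0.27 in that order. Without control naive replicate 2 they were -0.15, -0.11, -0.03, -0.15 and -0.19. Complex I then equalled complex IV, and complex III was near 0. Accessory subunits made up 19 of the falls among 52, core subunits 3 among 17 and assembly factors 1 among 15, and Ndufa4 was the remaining 1.

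This comparison rests on few arrays. Without control naive replicate 2 the median was -0.15, against 0.01 over all probe sets tested, and most of the 24 falls no longer passed. Without control naive replicate 1 the count was 52, without control trained replicate 1 it was 7 and without control trained replicate 2 it was 9, and without isocaloric naive replicate 1 or 2 it was 11 or 3. In naive samples alone 24 members fell, and in trained samples alone 0 passed in limma, with 11 at an unadjusted p under 0.05. Whether the difference depends on training was not tested for the control diet. Shares of all probe sets that passed in these fits are not given here. Without those shares, the counts alone cannot show whether the members differ from other probe sets.

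In complex I, the membrane arm, which pumps protons, had 8 falls among 18 subunits and a median of -0.27, and the matrix arm, which carries electrons, 5 among 15 and -0.19. Ndufb1, a small accessory subunit of the membrane arm, read 9.28 and 10.06 on the control naive and 8.96 and 8.88 on the control trained arrays. On the isocaloric naive arrays it read 8.51 and 8.42, and on the isocaloric trained arrays 8.58, 8.81, 8.62 and 8.58. All 6 isocaloric arrays lay below every control array. The fitted difference was -0.74 (SE 0.13; limma adjusted p = 0.0044), or -40.1% on a scale whose added constant understates changes of dim probe sets. It was -0.55 (SE 0.11; limma adjusted p = 0.0219) without control naive replicate 2.

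Ndufa7, an accessory subunit of the matrix arm, had the smallest p. Its control values were 9.06 and 9.42 in naive and 9.00 and 9.08 in trained samples. The isocaloric values were 8.62 and 8.53 in naive and 8.80, 8.84, 8.78 and 8.80 in trained samples. The diets did not overlap, and the spread within isocaloric trained samples was small. The difference was -0.45 (SE 0.07; limma adjusted p = 0.002), and -0.36 (SE 0.06; limma adjusted p = 0.00886) without control naive replicate 2. Ndufc1, another small membrane-arm subunit, was at -0.53 (SE 0.12; limma adjusted p = 0.0172), but its isocaloric trained replicate 1, at 8.99, lay above control trained replicate 1, at 8.71. The difference was -0.39 without control naive replicate 2 (limma adjusted p = 0.142). Ndufb2 fell by 0.39 and Ndufb11 by 0.31, both membrane-arm subunits, and Ndufa2, a matrix-arm subunit, by 0.47. Ndufb6, of the membrane arm, had the highest value of complex I at 0.04 (limma adjusted p = 0.827). Of the catalytic subunits, Ndufs1, which holds iron-sulfur clusters, was at -0.07 (limma adjusted p = 0.567) and Ndufv1, which binds NADH, at -0.19 (limma adjusted p = 0.115).

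Complex II, which is also the succinate dehydrogenase of the citric acid cycle, had 1 fall. Sdhb, its iron-sulfur subunit, read 9.38 and 9.93 on control naive, 9.50 and 9.50 on control trained, 9.14 and 9.15 on isocaloric naive, and 9.45, 9.53, 9.32 and 9.22 on isocaloric trained arrays. The naive arrays of both diets were apart, and the trained ones overlapped. The difference was -0.31 (SE 0.09; limma adjusted p = 0.0481), and -0.18 (limma adjusted p = 0.33) without control naive replicate 2. Sdha, the flavoprotein that oxidises succinate, was at -0.10 (limma adjusted p = 0.615), and the membrane anchors Sdhc and Sdhd at -0.06 and -0.08. Sdhaf2, the factor that helps attach FAD to Sdha, was the highest member at 0.27 (limma adjusted p = 0.145).

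In complex III the largest fall belonged to Uqcc2, an assembly factor needed for cytochrome b. It read 8.41 and 9.51 on control naive, 8.62 and 8.63 on control trained, 8.08 and 7.93 on isocaloric naive, and 8.25, 8.49, 8.13 and 8.21 on isocaloric trained arrays. Control naive replicate 2 was far above the rest, and 5 of 6 isocaloric arrays lay below every control array. The difference was -0.66 (SE 0.14; limma adjusted p = 0.0131), and -0.38 (SE 0.09; limma adjusted p = 0.0397) without that array. Uqcr11, the smallest subunit, fell by 0.37 (SE 0.09; limma adjusted p = 0.0194) and Uqcrh, the hinge protein near cytochrome c1, by 0.24 (SE 0.07; limma adjusted p = 0.0331). Uqcrfs1, the Rieske iron-sulfur protein, was at -0.12 (limma adjusted p = 0.32), and the core proteins Uqcrc1 and Uqcrc2 were each at -0.16.

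In complex IV all 10 members tested were below 0 and 1 passed. Cox6c, an accessory subunit, read 11.52 and 12.01 on control naive, 11.48 and 11.31 on control trained, 11.08 and 11.06 on isocaloric naive, and 11.06, 11.08, 11.19 and 11.16 on isocaloric trained arrays. Every isocaloric array lay below every control array. The difference was -0.49 (SE 0.11; limma adjusted p = 0.0141), and -0.36 (limma adjusted p = 0.112) without control naive replicate 2. Cox6a1, the ubiquitous form of subunit VIa, was at -0.29 (limma adjusted p = 0.0553), Cox4i1 at -0.11 (limma adjusted p = 0.317) and Cox5a at -0.12 (limma adjusted p = 0.646).

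In complex V the falls were 2 of 3 members of the central stalk, the rotor that couples proton flow to the catalytic head, 1 of 4 of the peripheral stalk, 2 of 5 of the small membrane subunits, and 0 of 2 of the head. Atp5f1e, the epsilon subunit of the stalk, read 10.43 and 11.12 on control naive, 10.38 and 10.26 on control trained, 9.64 and 9.62 on isocaloric naive, and 9.98, 10.37, 9.97 and 9.82 on isocaloric trained arrays. The isocaloric naive arrays were the lowest and isocaloric trained replicate 2 reached the control range. The difference was -0.71 (SE 0.12; limma adjusted p = 0.00456), and -0.54 (SE 0.11; limma adjusted p = 0.0264) without control naive replicate 2. Its partner Atp5f1d, the delta subunit, read 10.14 and 10.38 on control naive, 9.98 and 9.93 on control trained, 9.55 and 9.47 on isocaloric naive, and 9.71, 10.01, 9.92 and 9.99 on isocaloric trained arrays. Trained samples of both diets overlapped. The difference was -0.40 (SE 0.07; limma adjusted p = 0.00653), and -0.34 (SE 0.08; limma adjusted p = 0.0398) without that array. Atp5po, the stator subunit that ties the peripheral stalk to the head, fell by 0.41 (SE 0.09; limma adjusted p = 0.0117), and Atp5mk, a small membrane subunit found with ATP synthase dimers, by 0.44 (SE 0.10; limma adjusted p = 0.0172). The catalytic head subunits Atp5f1a and Atp5f1b were at -0.20 (limma adjusted p = 0.0868) and -0.16 (limma adjusted p = 0.277), and Atp5mc3, for the proton-carrying c ring, at -0.07 (limma adjusted p = 0.645).

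**Figure D2:**
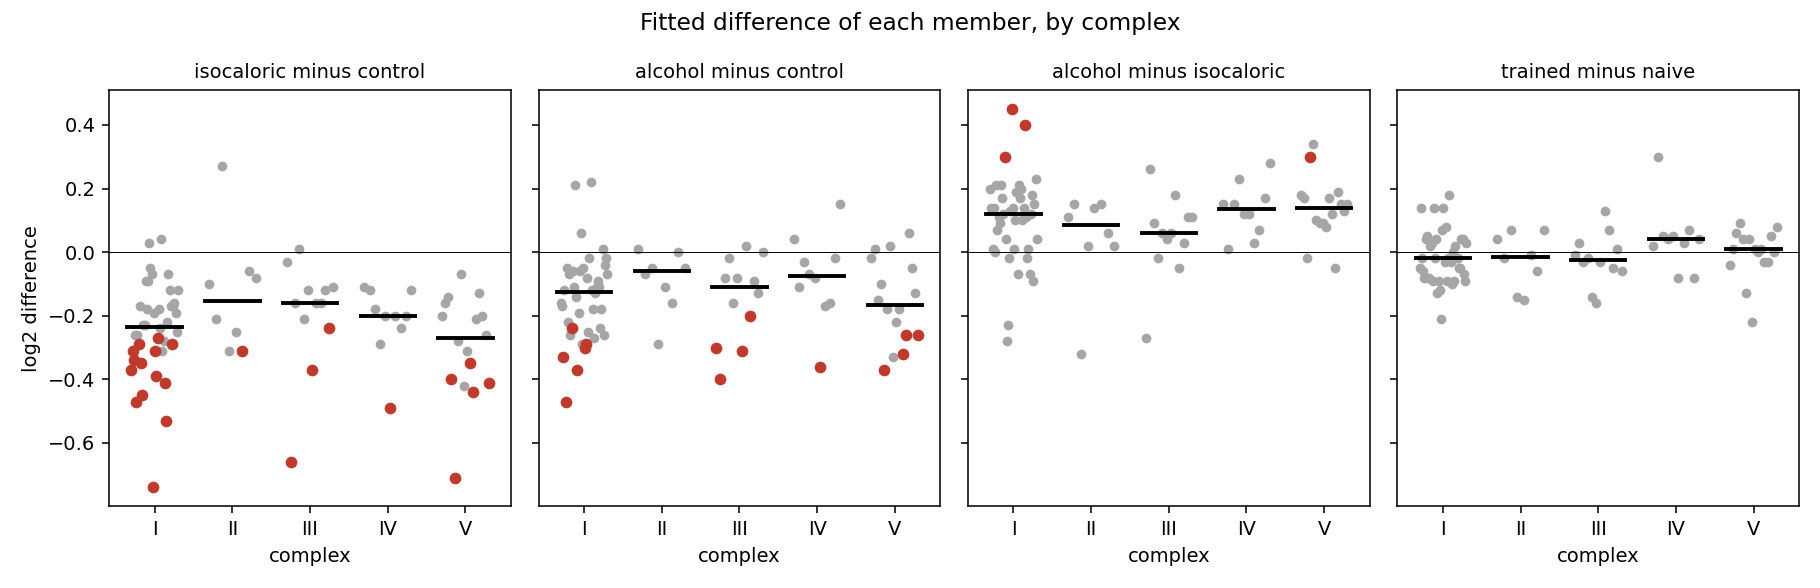
Fitted log2 difference of each of the 86 members tested (y axis) by complex (x axis) in 4 comparisons; red points passed an adjusted p of 0.05, grey points did not, and black bars are medians. Isocaloric minus control holds 24 red points, all below 0, alcohol minus control 15, all below 0, alcohol minus isocaloric 4, all above 0, and trained minus naive 0.

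Between alcohol and control samples 15 members fell and 0 rose, where 8.61% of all probe sets tested fell and 11.3% rose. The median was -0.11 against 0.00 over all, and 74 of 86 members were below 0, against 50.1%. This comparison shares its control arrays with the previous one, so the members' values in both are not independent. Falls numbered 6 in complex I, 0 in complex II, 4 in complex III, 1 in complex IV and 4 in complex V. Without control naive replicate 2 the median was -0.03, against -0.01 over all probe sets tested, and most of the 15 no longer passed. Ndufb11, among the 15, was then at -0.23, and Ndufab1, which was not among them, was higher in alcohol samples at 0.30. The count was 40 without control naive replicate 1, 8 without control trained replicate 1 and 6 without control trained replicate 2.

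Ndufb11, a membrane-arm subunit, had the smallest p. It read 10.06 and 10.32 on control naive and 10.12 and 10.07 on control trained arrays. On alcohol naive arrays it read 9.66, 9.75, 9.80 and 9.65, and on alcohol trained arrays 9.98, 9.98, 9.94 and 10.01. All 8 alcohol arrays and all 6 isocaloric arrays lay below every control array. The difference was -0.30 (SE 0.06; limma adjusted p = 0.00289), and -0.23 (limma adjusted p = 0.0246) without control naive replicate 2. Alcohol and isocaloric samples differed by 0.01 (SE 0.05; limma adjusted p = 0.924).

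Ndufa2 was at -0.47 (SE 0.11; limma adjusted p = 0.00721) in alcohol against control samples. It read 8.33 and 9.17 on control naive, 8.22 and 8.41 on control trained and between 7.90 and 8.15 on the alcohol arrays, all 8 of which lay below the control arrays. The difference was -0.26 (limma adjusted p = 0.0582) without control naive replicate 2. Ndufa12, a matrix-arm subunit added late in assembly, was at -0.33 (SE 0.08; limma adjusted p = 0.00912), and it read 9.55 and 10.09 on control naive, 9.66 and 9.67 on control trained and between 9.22 and 9.55 on alcohol arrays. The other falls in complex I were Ndufb2 at -0.29, Ndufa7 at -0.24 and the assembly factor Ndufaf4 at -0.37. Against these, Ndufb6 was at 0.22 (limma adjusted p = 0.0918) and Ndufab1 at 0.21 (limma adjusted p = 0.0756), the highest members of the complex.

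In complex III the small subunit Uqcr11 fell by 0.31, the core protein Uqcrc2 by 0.20, and the assembly factors Uqcc2 and Uqcc1 by 0.40 and 0.30, with limma adjusted p-values from 0.0137 to 0.042. Uqcrc2 read 9.92 and 10.05 on control naive and 10.04 and 10.12 on control trained arrays, and 7 of 8 alcohol arrays lay below all of them. For Uqcc1 a second probe set was at 0.06 (limma adjusted p = 0.721), the opposite sign, so its probe sets disagree. In complex IV Cox6c fell by 0.36 (SE 0.10; limma adjusted p = 0.0169), while Cox8a was the highest member at 0.15 (limma adjusted p = 0.201) and Cox4i1 was at 0.04. In complex V Atp5f1e fell by 0.37, Atp5mk by 0.32, Atp5po by 0.26 and Atp5mpl, a small membrane subunit, by 0.26. Atp5mpl read 9.07, 9.17, 9.20 and 9.20 on the control arrays and between 8.77 and 8.99 on the alcohol arrays. Its difference was -0.23 (limma adjusted p = 0.0731) without control naive replicate 2. The head subunits Atp5f1a and Atp5f1b were at -0.02 and 0.01. In complex II the lowest member was the assembly factor Sdhaf3 at -0.29 (limma adjusted p = 0.0853), and Sdhb was at -0.16 (limma adjusted p = 0.189).

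**Figure D3:**
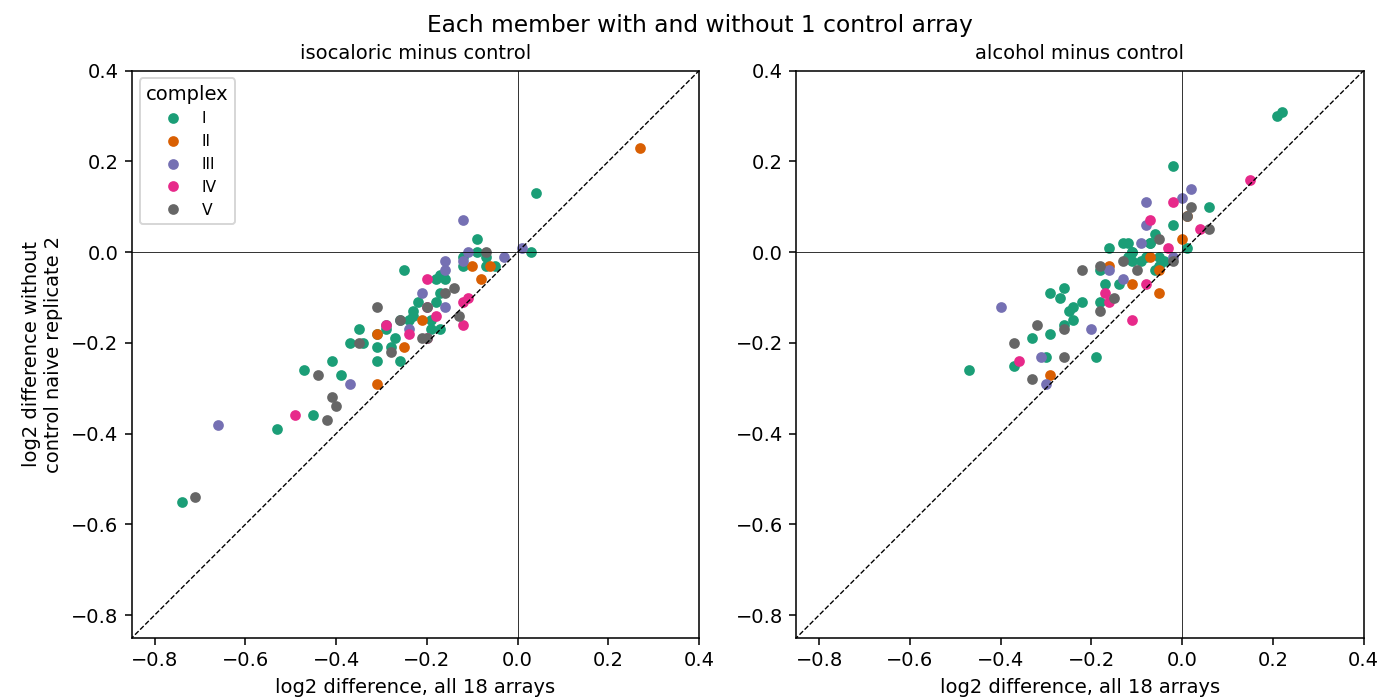
Log2 difference of each member with all 18 arrays (x axis) and without control naive replicate 2 (y axis), for isocaloric and alcohol minus control, coloured by complex; the dashed line marks equal values. Most points lie above the line, and the median moves from -0.21 to -0.15 for isocaloric and from -0.11 to -0.03 for alcohol samples.

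Measures other than diet also moved with the control arrays. The log2 ratio of the 3-prime to the 5-prime actin control probe sets, a measure of RNA integrity, was 0.54 to 0.73 on control arrays and 0.19 to 0.67 on the others. With this ratio in the limma model 0 members passed in alcohol against control samples, with 16 at an unadjusted p under 0.05, and 1, Ndufa3 at -0.43, in isocaloric against control samples. In alcohol against control samples some differences stayed near their size with larger errors, such as Ndufb11 at -0.27 (SE 0.08; limma adjusted p = 0.0753) against -0.30 (SE 0.06) without the ratio, and others were smaller, such as Atp5f1e at -0.21 against -0.37. With the same ratio of the Gapdh control probe sets in the model 17 members passed in alcohol and 19 in isocaloric samples against control. Shares of all probe sets that passed with either ratio are not given here, so these counts do not tell the members from other probe sets. Endothelial and mural markers rose in both comparisons, 5 of 5 tested, and their summed signal was 538 to 594 on control arrays and 838 to 1066 on the others. The blood marker tested, Hbb, fell in both comparisons, and the summed blood signal was 934 to 1362 on control arrays and 520 to 1074 on the others. Microglial markers summed to 974 to 1091 on isocaloric arrays and 1066 to 1530 on control arrays, with 1 of 7 tested falling in isocaloric samples. Of 8 astrocyte markers, Aqp4 fell in alcohol and Slc1a3 in isocaloric samples against control, and Aldoc rose in alcohol against isocaloric samples. Of 11 hippocampal neuron markers, 3 rose and 1 fell in alcohol against control samples, and 1 fell in isocaloric against control samples. The marker that fell in both was Camk2a, at -1.82 and -1.62. Among all probe sets tested, 11.3% rose and 8.61% fell in alcohol against control samples. In isocaloric against control samples 4.24% rose and 2.8% fell. Without control naive replicate 2 the median of endothelial and mural markers was 0.77 in alcohol and 0.76 in isocaloric against control samples. Camk2a was at -1.69 and -1.49, and Hbb, Aqp4 and Slc1a3 did not pass. Fewer hippocampal neuron markers rose in alcohol samples, and the medians of that list were 0.04 in alcohol and -0.11 in isocaloric samples. The microglial median in isocaloric samples was -0.13, against -0.23 with all arrays. The part of the endothelial, blood, microglial, astrocyte and neuron markers in the results was not tested.

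Alcohol samples were higher than isocaloric samples in most members. Of 86, 72 were above 0, against 45.5% of all probe sets tested, and the median was 0.12 against -0.02. Averaged over the members, alcohol arrays lay between -0.06 and 0.06 and isocaloric arrays between -0.17 and 0.01, so the diets overlapped. The rises past the threshold were 4, where 1.47% of all probe sets tested rose, and 0 members fell, where 1.59% did. The medians were 0.12 in complex I, 0.08 in complex II, 0.06 in complex III, 0.14 in complex IV and 0.14 in complex V. The isocaloric arrays are shared with the comparison against control. The median of the 11 hippocampal neuron markers tested was 0.16 (0.20 in naive and 0.22 in trained samples), and 1 rose, Hpca (0.53; limma adjusted p = 0.0176). Their summed signal was 11391 to 14686 on alcohol naive and 11021 to 11177 on isocaloric naive arrays, and 13025 to 14282 on alcohol trained and 10649 to 12165 on isocaloric trained arrays. The part of these markers in the members' difference was not tested. Without isocaloric naive replicate 1 or 2 the limma count was 0, with 21 or 17 at an unadjusted p under 0.05, and without alcohol trained replicate 3, alcohol naive replicate 2 or 3, or isocaloric trained replicate 3 or 4 it was 1.

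Atp5f1d had the smallest p among the rises. Against the isocaloric values above, it read 9.85, 9.99, 10.02 and 9.84 on alcohol naive and 10.01, 10.16, 10.02 and 10.19 on alcohol trained arrays. The naive arrays did not overlap, and 4 of all 8 alcohol arrays lay above every isocaloric array. The difference was 0.30 (SE 0.06; limma adjusted p = 0.0187), 23.1% higher. In Ndufb1 the alcohol naive arrays read 8.79, 9.38, 8.94 and 9.08 and the alcohol trained arrays 8.80, 8.91, 9.14 and 9.06, and 6 of 8 lay above every isocaloric array. Its difference was 0.45 (SE 0.11; limma adjusted p = 0.0322), 37% higher, and against control samples alcohol samples were at -0.29 (limma adjusted p = 0.0985).

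Ndufab1, the mitochondrial acyl carrier protein, which sits in both arms of complex I and also serves fatty acid synthesis, read 9.57, 9.47, 9.49 and 9.37 on alcohol naive and 9.60, 9.85, 9.75 and 9.55 on alcohol trained arrays. The isocaloric arrays read 9.11 and 9.05 in naive and 9.69, 9.41, 9.35 and 9.52 in trained samples. Naive groups were apart and trained groups overlapped. The difference was 0.30 (SE 0.07; limma adjusted p = 0.0355). Its control values were 9.30 and 9.67 in naive and 9.20 and 9.32 in trained samples, so in this gene isocaloric samples were not lower than control beyond the spread (-0.09, SE 0.09; limma adjusted p = 0.559). Ndufc1 read 8.79, 8.85, 9.05 and 9.10 on alcohol naive, 9.14, 9.12, 9.03 and 9.17 on alcohol trained, 8.48 and 8.61 on isocaloric naive and 8.99, 8.84, 8.35 and 8.65 on isocaloric trained arrays. In neither training state did the diets overlap. The difference was 0.40 (SE 0.10; limma adjusted p = 0.0424).

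**Figure D4:**
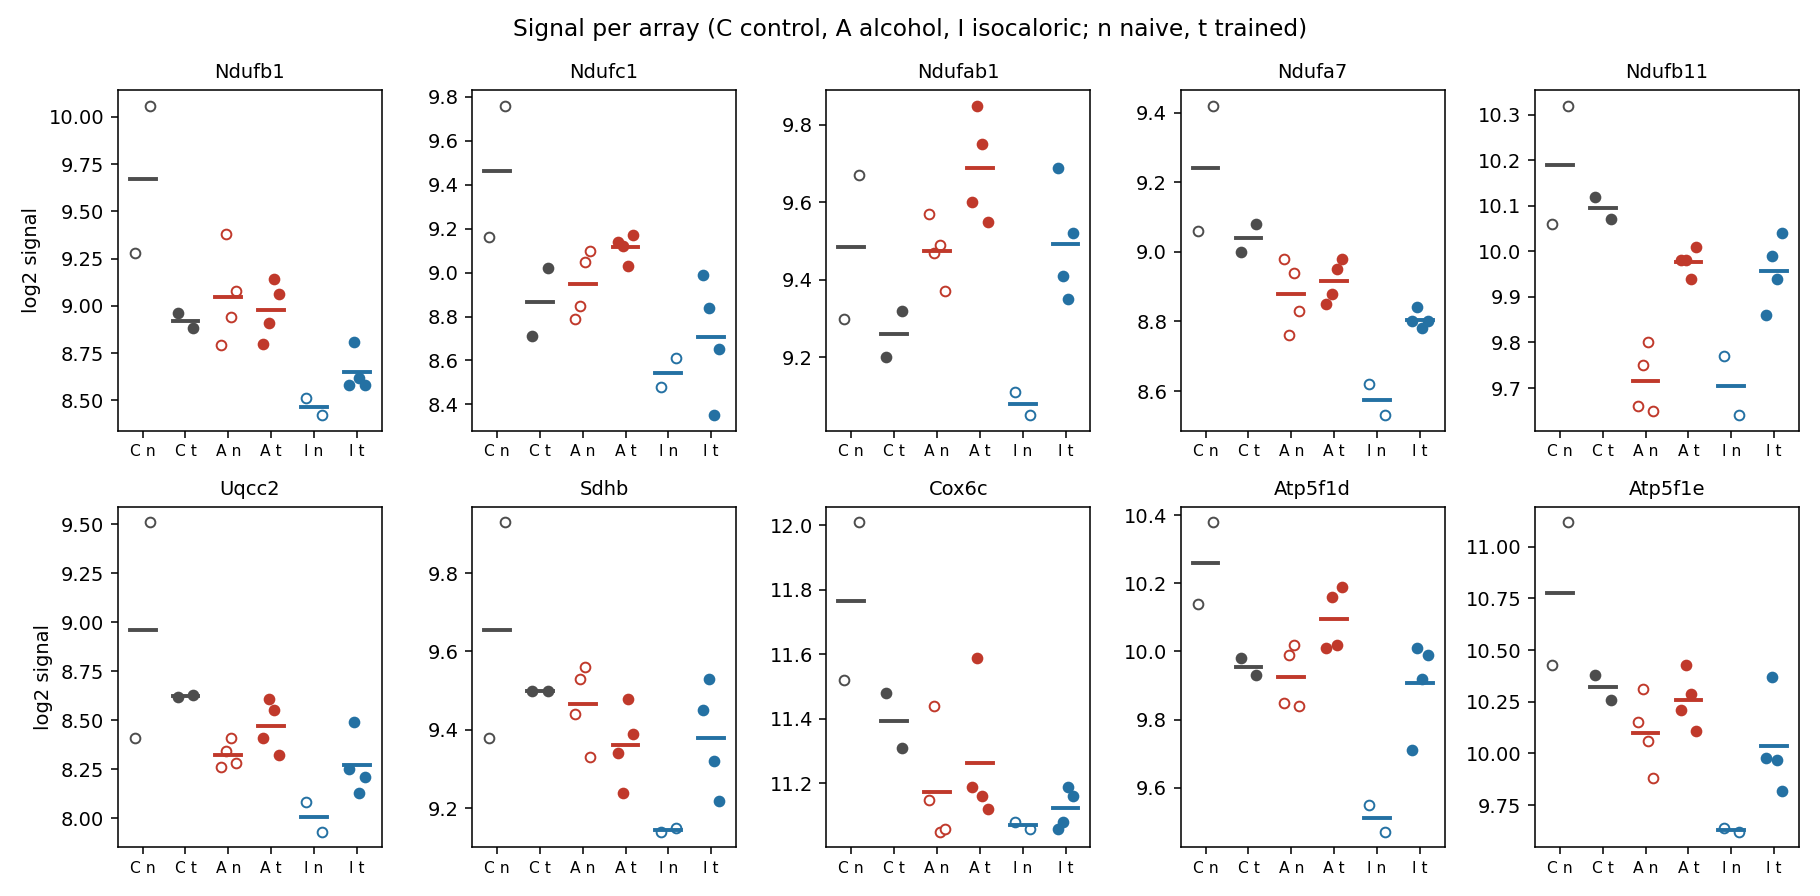
Log2 signal (y axis) of 10 members on each array by group (x axis; C control, A alcohol, I isocaloric, n naive, t trained), with bars at group means and open circles for naive samples. In Ndufb1 and Ndufa7 every isocaloric array lies below every control array, and in Ndufb11 the arrays of both other diets do.

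Among members that did not pass, the complex V subunit Atp5f1e was at 0.34 (limma adjusted p = 0.0753), Cox8a at 0.28 (limma adjusted p = 0.0505), Cox6a1 at 0.23 (limma adjusted p = 0.098) and Atp5f1a at 0.18 (limma adjusted p = 0.0946). In complexes II and III the highest were Sdhb at 0.15 and Uqcc2 at 0.26. All 10 members of complex IV tested were above 0. Assembly factors had a median of 0.03, with 9 of 15 above 0. The lowest members were assembly factors, Sdhaf2 at -0.32 (limma adjusted p = 0.0684), Ndufaf4 at -0.28 (limma adjusted p = 0.0875) and Uqcc1 at -0.27 (limma adjusted p = 0.101). For Ndufaf4 all 8 alcohol arrays, at 6.71 to 6.95, lay below all 6 isocaloric arrays, at 6.97 to 7.37. The second probe set of Uqcc1 was at 0.17 (limma adjusted p = 0.262), again opposite in sign.

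By training state, alcohol minus isocaloric had a median of 0.15 in naive and 0.08 in trained samples, with 75 and 65 members above 0, against 45.9% of all probe sets in each state. In each state 0 members passed the adjusted threshold in limma, where 0.0735% of all probe sets passed in naive and 0.399% in trained samples, and 20 and 11 members had an unadjusted p under 0.05. Ndufb1 was at 0.58 in naive and 0.33 in trained samples and Atp5f1d at 0.41 and 0.19. The difference between the states, tested as an interaction in limma, had a median of -0.07 over the members with 62 of 86 below 0 (49.7% of all probe sets), 0 members past the threshold (0% of all probe sets) and 5 at an unadjusted p under 0.05. The smallest p was that of Ndufa3, of the membrane arm, at -0.52 (SE 0.14; limma adjusted p = 1).

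Trained minus naive, averaged over the diets, had a median of -0.01, with 41 members above 0 (48.8% of all probe sets) and 45 below. In limma 0 members passed, where 0.0105% of all probe sets did, and 6 had an unadjusted p under 0.05. The medians were -0.02, -0.01, -0.02, 0.04 and 0.01 for complexes I to V. Without control naive replicate 2 the median was 0.06, with 66 members above 0 (46.9% of all probe sets) and 20 below, and the complex medians were 0.05, 0.03, 0.02, 0.07 and 0.09, so that those of complexes I to III turned from below to above 0. In that limma fit 0 members passed and 16 had an unadjusted p under 0.05. Ndufb11 was at 0.14 (SE 0.05; limma adjusted p = 0.758). It was higher on every alcohol trained array than on every alcohol naive array, and likewise in isocaloric samples, while its control arrays overlapped. Cox5a was the highest member at 0.30 (SE 0.11; limma adjusted p = 0.758) and the membrane subunit Atp5me the lowest at -0.22 (limma adjusted p = 0.814).

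Of the members, 7 did not pass the filter, 6 of them of complex IV. They included the tissue-restricted isoforms Cox4i2, known from lung, and Cox6a2, Cox7a1 and Cox8b, of heart and skeletal muscle, whose ubiquitous counterparts Cox4i1, Cox6a1 and Cox8a passed. Cox6b2, of testis, the pseudogene Cox6c-ps1 and Ndufa4l2 were the others. Cox8b was between 2.85 and 3.64 on 15 of 18 arrays and at 4.43, 5.59 and 6.20 on alcohol trained replicate 4, isocaloric trained replicate 3 and control trained replicate 1. These 3 are among the 4 arrays high in Ttr, the transthyretin gene of the choroid plexus, at 12.53 to 12.84 against 6.10 to 9.57 on the others; on the remaining one, alcohol naive replicate 2, Cox8b was at 3.64. Summed choroid plexus markers were 737 to 866 on isocaloric naive arrays and reached 10717 in the alcohol trained group. Without the 4 arrays high in Ttr, 0 members passed in alcohol against isocaloric samples in limma, with 19 at an unadjusted p under 0.05. That fit had fewer arrays, and the share of all probe sets that passed in it is not given here. The part of choroid plexus in this count was not tested. Control trained replicate 2 was then alone in its group, so counts against control are not read here.

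The same comparisons were made for other genes of the pathway. Of all probe sets tested, 11.3% rose and 8.61% fell in alcohol against control samples, and 4.24% rose and 2.8% fell in isocaloric against control samples. Between alcohol and isocaloric samples the smallest limma adjusted p among 37 such genes was 0.0644, of Slc25a3. Of 12 citric acid cycle and pyruvate genes tested, Dld, the dihydrolipoamide dehydrogenase shared by several dehydrogenase complexes, fell in alcohol against control (-0.59, SE 0.11; limma adjusted p = 0.00137) and in isocaloric against control samples (-0.42, SE 0.11; limma adjusted p = 0.0344). Sucla2, of succinyl-CoA synthetase, fell in alcohol against control samples (-0.21; limma adjusted p = 0.0224). Of 8 carriers and porins, 3 rose in alcohol against control samples: the adenine nucleotide translocator Slc25a4 (0.22), the phosphate carrier Slc25a3 (0.16) and the aspartate-glutamate carrier Slc25a12 (0.29). These move ADP, ATP, phosphate and reducing equivalents across the membrane. Their direction was opposite to that of the 15 members that fell, but the median of all 8 carriers and porins was 0.00. Of 5 biogenesis regulators tested, Polrmt, the mitochondrial RNA polymerase, rose in alcohol against control samples (0.43; limma adjusted p = 0.0468). Of 11 assembly factors outside the prefixes, Foxred1, for complex I, rose in alcohol (0.46; limma adjusted p = 0.0319) and isocaloric samples (0.54; limma adjusted p = 0.0421) against control. Cyc1, the cytochrome c1 of complex III, was at -0.21 (limma adjusted p = 0.0638) in isocaloric against control samples. Without control naive replicate 2, 2 of these genes passed, both in alcohol against control samples: Dld (-0.50, SE 0.12; limma adjusted p = 0.0161) and Slc25a4 (0.25, SE 0.07; limma adjusted p = 0.0355). Sucla2 was then at -0.16 (limma adjusted p = 0.141), Slc25a3 at 0.15, Slc25a12 at 0.22 and Polrmt at 0.23, and Foxred1 was at 0.28 in alcohol and 0.36 in isocaloric samples.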

How the data were processed

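Each deposited value is a linear intensity of a probe set, and all arrays have the same trimmed mean. Per the submitters' processing notes MAS5 was used for 2 control arrays; for the remaining arrays the summary method was not given in the sources used here. Of 15923 probe sets, 12789 had 1 gene symbol in the platform annotation; all 93 members matched the RefSeq gene table. Probe sets with several symbols, 7 with a member prefix, were not used as members. Values were analysed as log2(value + 6.06), the 10th percentile of all values. Probe sets with a mean under the 40th percentile and 57 Affymetrix controls were left out, which left 9520. The fit used limma 3.58.1 (R 4.3.3; lmFit on 6 group means, eBayes with trend, two-sided, Benjamini-Hochberg at 0.05) was checked on simulated data. Averaged diet comparisons weight trained and naive samples equally. The number of arrays limits the precision.

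Members named are those past the threshold (or the 12 of smallest p), the 2 of smallest p per complex, fixed core subunits and isoforms, and the ends of ranges. The members and lists were chosen with earlier results of these data known. There were 35 alternatives in all, and each result was repeated under those that apply to it.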

Additional observations from a re-analysis of the deposited data

Results flagged for a closer look

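Within groups of 4 arrays, a member was picked out where 1 array lay far from the other 3 (Dixon's criterion). Of 174 such tests 9 did so, and chance gives about 1 in 20. In complex I, Ndufb6 was at 9.21 on alcohol naive replicate 1 (others 8.93 to 8.97), Ndufa3 at 9.25 on alcohol trained replicate 4 (others 9.53 to 9.57) and Ndufb1 at 8.81 on isocaloric trained replicate 2 (others 8.58 to 8.62). In complex II, Sdhaf1 was at 8.41 on isocaloric trained replicate 1 (others 8.18 to 8.22). In complex III, Uqcr11 was at 9.98 on alcohol trained replicate 4 (others 10.43 to 10.48) and Uqcrc2 at 10.04 on isocaloric trained replicate 2 (others 9.90 to 9.91). In complex IV, Cox6c was at 11.59 on alcohol trained replicate 2 (others 11.12 to 11.19) and Cox5b at 10.89 on isocaloric trained replicate 2 (others 10.55 to 10.60). In complex V, Atp5f1b was at 11.54 on isocaloric trained replicate 1 (others 11.75 to 11.78). Isocaloric trained replicate 2 accounts for 3 of the 9, all high.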

How the results depend on the processing

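Of the calls of named members, 34 were followed under 27 to 29 alternatives each. The falls of Uqcrh and Ndufa4 in isocaloric minus control were not among them. Of the 34 calls 0 reversed direction, but calls were lost. Those lost most often were Uqcc1 (19 of 29), Sdhb (17 of 27), Uqcc2 in alcohol minus control (16 of 29) and Ndufc1 in alcohol minus isocaloric (15 of 28). Leaving out each array in turn, the count of members past the threshold ran from 0 to 5 for alcohol minus isocaloric, 2 to 40 for alcohol minus control, 3 to 52 for isocaloric minus control, 0 to 1 for trained minus naive, and 0 to 1 for alcohol minus isocaloric in naive samples. For alcohol minus isocaloric the count was 14 with arrays centred on all probe sets, 1 with no filter on low values, 14 with the groups compared alone, 22 with array weights (19 higher, 3 lower), 0 with the Gapdh 3-prime to 5-prime ratio as covariate in limma (27 at an unadjusted p under 0.05) and 0 without the 4 arrays high in Ttr; in naive samples it was 14 with array weights. For alcohol minus control it was 6 with a replicate block, 0 with the actin ratio, 32 without the 2 arrays written with 6 digits, 1 without the 4 arrays high in Ttr, 3 in trained and 9 in naive samples alone. For isocaloric minus control it was 37 with median centring, 51 with centring on all probe sets (which moved the median of all probe sets tested from 0.02 to -0.09), 7 with the groups compared alone, 1 with the actin ratio, 38 without the arrays of 6 digits, 3 without those high in Ttr and 0 in trained samples alone, and the median was -0.34 in naive samples alone. Without control naive replicate 1 or the arrays of 6 digits, control naive replicate 2 is alone in its group and is assumed to vary like the other groups. The same holds for control trained replicate 2 without the 4 arrays high in Ttr. The cause of these shifts was not tested, and shares of all probe sets that passed are not set beside these counts. Centring on all probe sets also moved the median of all probe sets tested in alcohol minus isocaloric, from -0.02 to 0.06. The replicate numbers were not shown to pair samples: over 12 same-numbered pairs the correlation of deviations ran from -0.12 to 0.12, with 2 over 0.1, and the replicate block gave 4 calls for alcohol minus isocaloric, 6 for alcohol minus control and 16 for isocaloric minus control. The actin ratio, centring on all probe sets, the removal of arrays high in Ttr and the fits within a training state were chosen after seeing the data.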
